A study of Mus musculus with 194 samples.

Results

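The genes described here are Sst, Npy, Vip, Cck, Crh, Nts, Tac2, Cort, Pvalb and Grp, which encode neuropeptides of interneurons and of stress-related neurons, and in the case of Pvalb a calcium-binding protein that marks a large interneuron class. They were taken by name from the table of read counts, 10 of its 19363 genes. Each was followed across 5 mouse brain structures, 3 cocaine experiences and 4 time points.

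The study applied 3′-RNA-seq, which reads the 3′ ends of transcripts, to 5 structures of male C57BL/6OLAHSD mice aged 6 to 7 weeks at the start. These were the limbic cortex (LCtx, medial prefrontal and cingulate), amygdala (Amy), lateral hypothalamus (LH), dorsal striatum (DS) and nucleus accumbens (NAc). The schedule of challenge mice was longer than that of repeated mice by 21 days of abstinence, so age at collection and challenge cannot be told apart. Saline was injected on the days before cocaine to habituate the mice, and the 0 h mice were taken straight from the home cage. Cocaine, a blocker of monoamine reuptake, was given i.p. at 20 mg/kg as a first dose (acute), as the last of 5 daily doses (repeated, labelled chronic), or as a single dose after 21 days of abstinence from repeated cocaine (challenge). Brains were collected 1, 2 or 4 h later, and the 0 h mice received no cocaine that day, so they were cocaine-naive in the acute group, had received 4 earlier doses in the repeated group, and were abstinent in the challenge group. No group that was given saline in place of cocaine on the day of collection was used here. In all, 48 mice gave 166 samples of 1 structure from 1 mouse, and 28 of these were sequenced in 2 runs, which makes 194 libraries in 9 runs. Groups of 1 structure, experience and time held 1 to 5 mice.

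Sequencing run and cocaine experience were tied together in most of the data. Only the DS, in a run that held 8 mice of each experience (called the shared run), the second DS libraries of the repeated and challenge mice, and the acute and repeated mice of Amy and LH allow experiences to be compared within 1 run. In LCtx and NAc, and for every challenge sample outside the DS, run and experience cannot be told apart. The cohort of animals, as the sample descriptions number it, was tied to experience in every structure, so cohort and experience cannot be told apart within a run either. The tissue was cut from slices of 400 µm, so a sample holds every cell type of the block, and in such bulk samples fewer cells of a type and less RNA per cell cannot be told apart.

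Neuropeptides are cut from larger precursors, stored in dense-core granules and released to act on G-protein-coupled receptors. In cortex, amygdala and striatum most inhibitory interneurons fall into classes named for such genes. Pvalb cells inhibit the cell body, Sst cells inhibit dendrites, and Vip cells mainly inhibit other interneurons. Npy is made by many Sst cells, Cort is a relative of Sst found in part of the same classes, and Cck is made both by a class of basket cells and by many excitatory cortical neurons. Crh starts the hormonal stress response and also occurs in amygdala and cortical interneurons. Nts, neurotensin, modulates dopamine transmission, Tac2 encodes neurokinin B, and Grp encodes gastrin-releasing peptide.

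In the GENCODE annotation of GRCm38 the genes lie apart from each other. Sst lies at chr16:23889573-23890958 and Cck at chr9:121489824-121495694, Crh at chr3:19693401-19695396 and Cort at chr4:149125034-149126763, all on the minus strand, as do Nts at chr10:102481756-102490486 and Pvalb at chr15:78191114-78206400. Npy lies at chr6:49822710-49829507, Vip at chr10:5639218-5647617 and Tac2 at chr10:127724478-127731768, on the plus strand. Reads of 3′-RNA-seq come from the end of the last exon of each.

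Sst and Cort are shown first at the level of sequence because they encode the peptides closest to each other in this group and share receptors. The lines give the last 14 codons before the stop codon, with the bases that are identical between the 2 genes in capitals, aligned with an offset of 1 codon. They lie in GRCm38 at chr16:23889732-23889773 and chr4:149125267-149125308, both on the minus strand, in the last coding exon, and were read from the GENCODE transcripts.
Sst: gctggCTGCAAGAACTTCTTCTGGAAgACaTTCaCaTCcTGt
Cort: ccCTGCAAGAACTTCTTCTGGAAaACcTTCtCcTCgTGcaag
Of the 39 aligned bases, 31 were identical (79.5%), with a run of capitals in the stretch that codes the receptor-binding core. The stretches also differ at single bases, and a read that covers only this end would still carry differences between the genes.

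The promoters are shown because Sst is the textbook target of the cAMP response element, whose full palindrome is TGACGTCA and whose core is TGACG. Windows of 30 bases around each match, with the match in capitals, come from the RefSeq promoter sequences of GRCm38.p6, which held 8 of the 10 genes and a second start for Pvalb. They are at chr16:23890874-23890903 (minus strand) for Sst, chr10:5639127-5639156 (plus) for Vip, chr9:121495724-121495753 (minus) for Cck, chr10:102490567-102490596 (minus) for Nts and chr4:149126764-149126793 (minus) for Cort.
Sst: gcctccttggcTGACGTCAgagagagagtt
Vip: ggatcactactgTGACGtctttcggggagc
Cck: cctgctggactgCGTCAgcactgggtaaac
Nts: attagggaagatCGTCActttccatcaagg
Cort: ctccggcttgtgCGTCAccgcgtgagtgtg
Both strands of the 250 bases before each start were searched, so CGTCA is the core read on the other strand, and the palindrome holds the core on both strands. The match lay 48 bases before the start of Sst, 79 before Vip, 47 before Cck, 166 before Nts and 18 before Cort. The promoters of Npy, Tac2 and Pvalb held neither motif in this window. Among 32851 promoters, 1.55% held the palindrome and 17.8% the core, so a core match is common and describes letters rather than a site in use.

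Values are a gene's counts scaled to the total counts of the sample (CPM), and totals ran from 1193306 to 10367769 counts per library, which bounds the precision for genes at a few CPM. Summed levels of marker genes fixed for each tissue went with the dissected structures. The 7 cortical excitatory markers summed to 1153 to 2059 CPM in LCtx, 647 to 1485 in Amy, 89.7 to 655 in NAc, 147 to 199 in LH and 34.2 to 119 in DS. The 9 striatal projection neuron markers summed to 8076 to 11077 CPM in DS and 3511 to 6065 in NAc against 176 to 836 in the other structures, and the 9 hypothalamic and thalamic markers to 9408 to 16214 CPM in LH against 738 to 1659 in Amy and at most 97.1 elsewhere. The wide range of cortical marker sums between NAc mice is set beside the NAc results further on.

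Sst was high in every structure, and 7 of its 10 structure pairs were called. It reached 616 to 1116 CPM in Amy (median 912, 31 mice), 665 to 992 in LCtx (762, 28 mice), 519 to 887 in NAc (701, 36 mice), 359 to 647 in LH (472, 23 mice) and 333 to 577 in DS (470, 48 mice). The ranges of all 5 structures overlapped in a chain, and the highest median was 1.94 times the lowest. These DS levels are sums over the runs of a mouse, and the place of DS in the order depends on the library: in the mice with 2 DS libraries the Sst medians were 352, 603 and 681 CPM (acute, repeated and challenge) in the shared run and 554, 358 and 453 in the separate runs. LCtx exceeded DS by 0.69 ± 0.048 (log2, SE) and NAc exceeded DS by 0.53. Between neighbours in the order, Amy and LCtx (0.18, edgeR adjusted p = 0.00172) and LCtx and NAc (0.17, adjusted p = 0.00144) differed by less than the 1.2-fold used for a call, NAc exceeded LH by 0.60 ± 0.053 (adjusted p = 5.02e-20), and LH and DS (0.07, adjusted p = 0.203) did not pass the test. NAc minus Amy was -0.34, but -0.04 (adjusted p = 0.543) in the challenge mice of the 2 runs that held both. A call here means a Benjamini-Hochberg adjusted p under 0.05 over all genes tested together with a fold change over 1.2, in edgeR's quasi-likelihood test with the animal as a block.

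Npy, which encodes neuropeptide Y and is made by many of the same interneurons, was lowest in LH. It measured 183 to 304 CPM in NAc (median 246), 200 to 281 in Amy (243), 185 to 305 in LCtx (242) and 159 to 243 in DS (188), but 33.1 to 61.9 in LH (44.5). No LH mouse reached the lowest mouse of any other structure. The difference was 2.49 ± 0.054 between LCtx and LH (adjusted p = 2.71e-80), 2.45 ± 0.052 between NAc and LH (adjusted p = 2.92e-82), 2.44 ± 0.052 between Amy and LH and 2.17 ± 0.051 between DS and LH. NAc and Amy (0.02, adjusted p = 0.714) and Amy and LCtx (0.05, adjusted p = 0.300) did not pass the test. DS was called lower than LCtx (0.32, adjusted p = 1.59e-12), NAc (0.28, adjusted p = 1.04e-11) and Amy (0.27, adjusted p = 4.06e-10). The NAc and Amy calls lay near the fold of 1.2 and fell under it without the samples numbered replicate 4 (0.25 for both). A number belongs to a sample of 1 structure, so leaving it out does not remove the same mice in every structure. The DS level of Npy also moved with the library of the same mice, from medians of 139, 202 and 215 CPM in the shared run to 231, 175 and 179 in the separate runs, and what this does to the 3 DS calls was not tested.

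Cort, the cortistatin precursor, followed another order than Sst. It measured 22.9 to 64.7 CPM in LCtx (median 35.1), 12.3 to 29.3 in Amy (21.05), 2.30 to 35.99 in NAc (8.83), 0.504 to 3.37 in LH (1.80) and 0 to 3.39 in DS (0.434). Every LCtx mouse lay above every LH and DS mouse, while NAc ranged into the levels of both Amy and LH. Cort had no count in 12 of 48 DS mice. The fitted LCtx to DS difference of 5.63 ± 0.16 (adjusted p = 8.47e-70) rests on a DS level near 0 and is a description only. In DS and LH 1 mouse gave 0 to 18 counts. Cort failed the filter on low counts in DS and in the 0 h comparison of LH, and nothing is read from the test between DS and LH.

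Vip and Cck had the same order of structures and fell steeply from cortex to DS. Vip measured 39.6 to 102 CPM in LCtx (median 75.3), 16.7 to 47.2 in Amy (28.9), 2.02 to 29.3 in NAc (9.57), 2.54 to 9.61 in LH (5.54) and 0 to 5.08 in DS (1.33). Cck measured 1236 to 2966 CPM in LCtx (median 2281), 891 to 1643 in Amy (1396), 47.5 to 927 in NAc (285), 90.5 to 244 in LH (133) and 26.7 to 138 in DS (45.1). For both genes NAc ranged widely between mice and crossed its neighbours in the order. LCtx exceeded DS by 5.59 ± 0.11 for Vip (adjusted p = 1.78e-86) and by 5.52 ± 0.15 for Cck (adjusted p = 8.63e-68). The fitted Vip differences from DS rest on a DS level near 0 and are a description only. All neighbours in the order were called for these 2 genes over all mice, though NAc and LH not for Vip in 0 h mice (0.61, adjusted p = 0.0848), with Amy over LH by 3.25 ± 0.17 for Cck and LCtx over Amy by 0.87 ± 0.14.

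Grp was a gene of LCtx and Amy in these samples. It measured 24.6 to 68.3 CPM in LCtx (median 39.4), 9.38 to 31.5 in Amy (23.6), 0.712 to 5.65 in LH (3.64), 0 to 6.80 in NAc (1.99) and 0 to 0.922 in DS (0), where 26 of 48 mice had no count and none had more than 5. LCtx exceeded NAc by 4.41 ± 0.12, and LH exceeded NAc by 0.80 ± 0.20 (adjusted p = 0.000149). The LH and NAc difference, NAc minus LH, was -0.19 (adjusted p = 0.597) in the challenge mice of the 2 runs that held both, and -0.35 (adjusted p = 0.552) in 0 h mice, and was not called there. The fitted LCtx to DS difference of 7.91 ± 0.16 (adjusted p = 4.40e-103) rests on a DS level near 0 and depends on how zeros are handled. Grp is also the only one of these genes that another gene overlaps, on the opposite strand, and whether reads were counted by strand is not given in the sources used here.

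The peptides best known from hypothalamus and extended amygdala had other orders. Tac2 measured 94.1 to 165 CPM in LH (median 124), 68.7 to 181 in Amy (108), 22.7 to 55.1 in LCtx (38.5), 23.2 to 52.7 in NAc (38.0) and 0 to 8.81 in DS (1.44). LH and Amy overlapped and were not called (0.13, adjusted p = 0.0796), as were LCtx and NAc (0.05, adjusted p = 0.620), while no DS mouse reached the other 4 structures. DS fell below Amy by 5.78 on the log2 scale (SE 0.10, adjusted p = 3.14e-92). Tac2 failed the filter on low counts in the shared-run DS libraries. The fitted difference rests on a DS level near 0 and is a description only.

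Nts measured 79.7 to 168 CPM in LH (median 103), 45.8 to 133 in NAc (85.7), 45.1 to 99.1 in Amy (75.3), 5.85 to 37.7 in DS (13.1) and 1.17 to 79.3 in LCtx (7.16). Its highest LCtx value came from 1 mouse, described with the time course. NAc exceeded DS by 2.35 ± 0.11 (adjusted p = 1.23e-44), which separated both parts of the striatum without overlap. LCtx differed from DS by -1.004 ± 0.17 (adjusted p = 3.56e-08), and Nts was thus the only one of the 10 genes called lower in LCtx than in DS. LH exceeded NAc by 0.29 ± 0.11 (adjusted p = 0.0105). This was not called by DESeq2 (adjusted p = 0.0777) or in 0 h mice (NAc minus LH -0.17, adjusted p = 0.389). Nor was it called without the samples numbered replicate 2 (-0.21, adjusted p = 0.0859) or replicate 4 (-0.24), or without the 1 LCtx mouse (-0.26). NAc exceeded Amy by 0.22 (adjusted p = 0.0420, under the fold of 1.2).

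Crh, corticotropin-releasing hormone, was low everywhere. It measured 5.06 to 19.3 CPM in Amy (median 11.1), 6.42 to 19.8 in LH (10.4), 3.94 to 22.2 in NAc (7.59), 3.13 to 11.2 in LCtx (6.85) and 0 to 3.35 in DS (0.716). Amy, LH, NAc and LCtx overlapped, and neither Amy and LH (0.09, adjusted p = 0.4934) nor NAc and LCtx (0.26, adjusted p = 0.0478, under the fold of 1.2) were called. DS differed from Amy by -3.62 ± 0.15 (adjusted p = 2.41e-50), which rests on a DS level near 0 and is a description only.

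Pvalb was the one gene with its lowest level in NAc. It measured 68.4 to 94.3 CPM in LH (median 82.3), 34.3 to 57.5 in Amy (48.5), 35.2 to 87.6 in LCtx (47.8), 20.97 to 41.4 in DS (27.9) and 8.66 to 37.9 in NAc (19.8). LH separated from NAc, DS and Amy but not from the highest LCtx mice. LH exceeded NAc by 2.07 ± 0.072 (adjusted p = 6.91e-57), DS exceeded NAc by 0.56 ± 0.069 (adjusted p = 1.20e-12), and Amy and LCtx did not differ (0.11, adjusted p = 0.187).

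**Figure D1:**
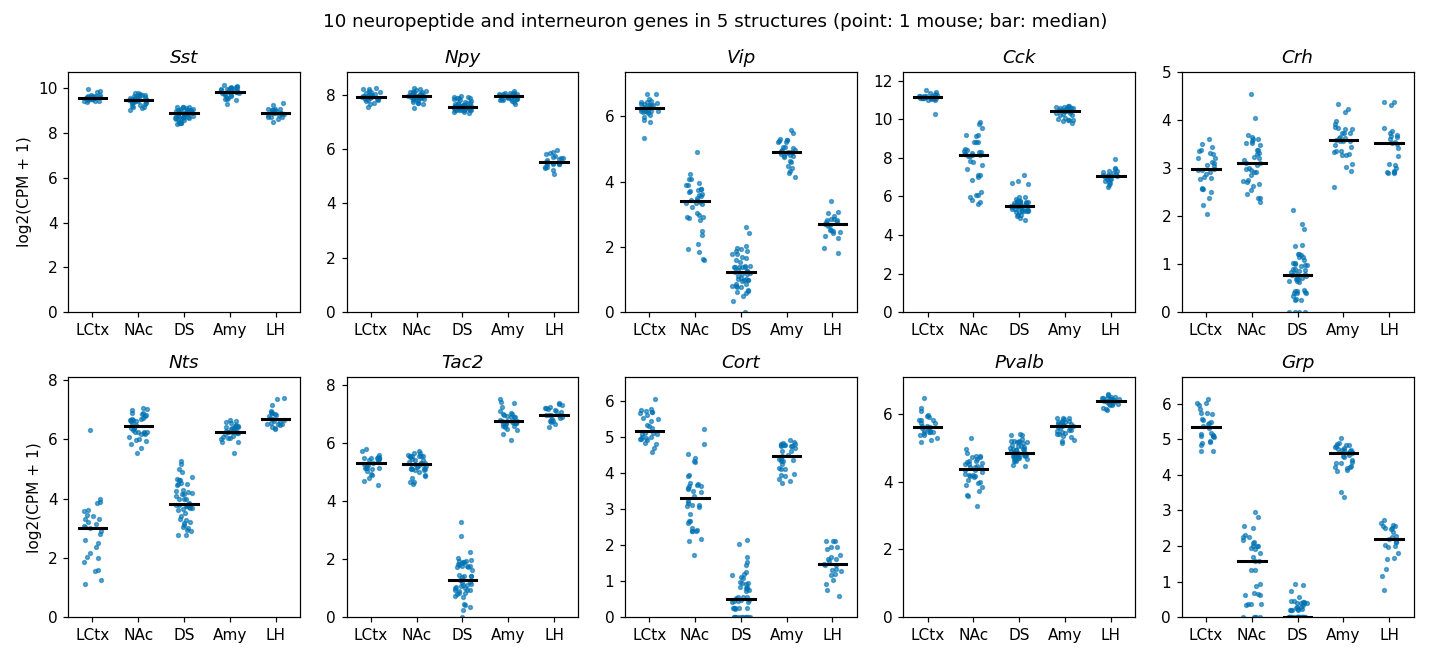
Levels of the 10 genes in every mouse on a log2(CPM + 1) scale, 1 panel a gene, with structures on the horizontal axis, 1 point a mouse and a bar at the median. Sst medians lie within 1.94-fold of each other, Npy lies lowest in LH, and Vip, Cck, Cort, Grp and Tac2 lie lowest in DS.

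Over the 10 pairs of structures, 88 of 100 tests of these genes were called, 45 higher and 43 lower in the structure named first, against 52.1% of all tests over all genes. All 10 genes were called between LCtx and DS, where 62.8% of all genes were called, with a median of 3.60 for these genes against -0.02 for all. All 10 were also called between LCtx and LH (background 56.5%), NAc and DS (47.0%), NAc and LH (58.3%), and DS and Amy (60.5%), where all 10 were lower in DS. There were 9 calls between DS and LH (68.2%), Cort among them, 8 between NAc and Amy (43.0%), all lower in NAc, 8 between Amy and LH (45.9%), 7 between LCtx and Amy (31.3%) and 6 between LCtx and NAc (47.7%). Vip, Crh, Tac2, Cort and Grp failed the filter in the shared-run DS libraries, and Crh, Cort and Grp also in the DS time courses. They passed here through structures where they are higher, so the counts against DS are a description only. Structures were mostly sequenced in different runs. In the challenge mice of the 2 runs that held LCtx, NAc, Amy and LH together, 48 of 60 tests were called with the run as a term. In 0 h mice only, 80 of 100 tests were called. Crh (-0.47, adjusted p = 0.123) and Pvalb (-0.25, adjusted p = 0.141) were then not called between LCtx and LH, nor Vip, Crh, Nts and Grp between NAc and LH.

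The receptors for these peptides also differed between structures. Of 19 receptor and binding-protein genes listed, 15 passed the filter on low counts. Between LCtx and DS, where 62.8% of all genes were called, 10 were higher in LCtx, led by Sstr3 (a somatostatin receptor, 4.87), Ntsr1 (a neurotensin receptor, 4.38) and Cckbr (the brain receptor for cholecystokinin, 4.13), and the neurokinin B receptor Tacr3 was the 1 lower (-3.69). Between DS and Amy (60.5%), 12 were lower in DS, with Sstr3 at -4.59, Cckar at -4.14, Ntsr1 at -3.94 and the CRH-binding protein Crhbp at -3.93. Between LCtx and LH (56.5%) the list was split, 7 higher and 7 lower, with Cckar at -7.69. The receptor list had a median of 0.69 between LCtx and DS, against -0.02 for all genes, and of -2.50 between DS and Amy, against 0.02. Fewer receptors passed the filter in the comparisons by experience within DS or within LCtx. Part of the list thus passed here through structures where it is higher, and these counts, differences and medians are a description only.

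To place each gene among the others, its mean level over the 60 groups of structure, experience and time was correlated with that of 12951 genes on log2(CPM + 1), and the 3 highest Pearson r were taken. Groups share mice, runs and tissue, so the values describe likeness and carry no p. Cck was most like the cortical transcription factors Neurod6 and Neurod2 (0.99 each) and 3110035E14Rik (0.99). Vip was most like Cck (0.98), Cckbr (0.98) and Dkkl1 (0.98), Cort most like Fam81a (0.98), the vesicular glutamate transporter Slc17a7 (0.97) and Coro1a (0.97), and Grp most like Olfm1, Bhlhe22 (0.98) and the synaptic zinc transporter Slc30a3 (0.97).

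Npy was most like Icam5, Rprml and the muscarinic receptor Chrm1, each at 0.98, and Tac2 most like Wdr6 (0.99), Pnck (0.98) and Psme1 (0.98). Nts was most like Zcchc12 (0.96), Gpr101 (0.95) and Peg10, and Crh most like Tac2 (0.95), Pnck (0.94) and Epb41l4b (0.94). Sst was most like Lypd1 (0.92), Plppr2 (0.91) and Chd3 (0.91), and Pvalb most like Hsd11b1 (0.94), Plcb4 (0.93) and Fam149a (0.92).

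With the structure means removed, the same 60 groups gave lower values. Cck was most like Nov (0.92), Slc17a7 (0.89) and Olfm1 (0.89), and Vip was most like C1ql3 (0.80), Cck (0.79) and Bhlhe22 (0.77). Cort was most like Coro1a (0.79), Galnt9 (0.77) and Lgals1 (0.77), and Grp most like Bhlhe22 (0.74), Atp5b (0.74) and Hopx (0.72). Nts was most like peptides of striatal projection neurons, Cartpt (0.76) and Tac1 (0.74), along with Klhl13 (0.74). Sst was most like Faim2 (0.72), Clip2 (0.66) and Wdr83os (0.65), and Npy most like Phf24 (0.65), Nell2 (0.64) and Chrm1 (0.64). For Crh (Pnma1 0.57, Arntl 0.54, Pja1 0.52), Tac2 (Selenoh 0.58, Fxyd6 0.57, Gsta4 0.54) and Pvalb (Serpinb8 0.55, Gm14443 0.51, Ankrd34c 0.51) no gene came above 0.58.

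The time courses asked whether the genes moved in the hours after an injection. Across the 15 courses of 5 structures and 3 experiences, 2 of 141 tests were called, against 0.322% of all tests over all genes, and 15 had an unadjusted p under 0.05. Both calls came from the acute groups, and each was lost without 1 mouse.

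In LCtx, where 0.290% of all genes were called over time after acute cocaine, the called gene was Nts. It measured 3.07, 1.39 and 2.995 CPM at 0 h, 1.97 and 79.3 at 1 h, 2.06 and 2.67 at 2 h and 1.17 at 4 h. A single mouse stood apart, and the other acute mice lay between 1.17 and 3.07 CPM, from 4 to 13 counts each. The 1 h coefficient was 3.89 (adjusted p = 0.000110), and it was -0.37 (adjusted p = 1.00) without that mouse. In the same library the striatal projection neuron markers summed to 525 CPM against 229 to 314 in the other acute LCtx mice, the cortical markers to 1153 against 1765 to 2051, and the interneuron gene list to 2517 against 1365 to 1517. Repeated and challenge LCtx mice, with striatal sums of 452 to 509 and 378 to 552 CPM, had Nts of at most 14.8 CPM. In the library that stood apart, Cck (1236 CPM), Npy (185 CPM) and Vip (39.6 CPM) were the lowest of all LCtx mice. Also called in that course were Slc32a1 (1.33), Tac1 (1.28) and Gad2 (1.12) of the interneuron list, Cartpt (1.92) and Penk (1.32) of the other peptides, and the striatal marker Drd2 (2.30), each given at its time farthest from 0 h.

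**Figure D2:**
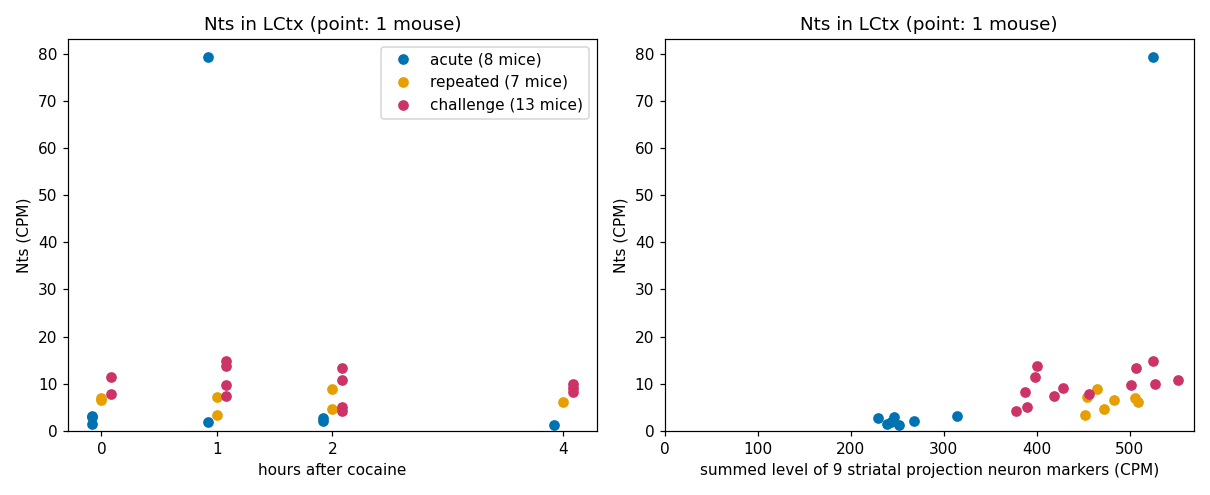
Nts in every LCtx mouse (CPM), against hours after cocaine on the left and against the summed level of 9 striatal projection neuron markers (CPM) on the right, coloured by experience. One acute 1 h mouse lies at 79.3 CPM with a striatal sum of 525, and the other acute mice lie at or below 3.07 CPM.

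In DS, where 2.62% of all genes were called over time after acute cocaine, the called gene was Cck. In the separate acute run it measured 138, 104, 55.7 and 56.9 CPM in the 4 naive mice and 55.6, 50.6, 39.2 and 39.3 CPM at 4 h. The lowest naive mouse lay just above the highest 4 h mouse, and the 2 highest naive mice carried the difference. The change was -0.93 at 4 h (adjusted p = 0.0406), and -0.60 (adjusted p = 0.618) without the naive mouse at 138 CPM. It was also not called without the mice numbered replicate 2 (-0.89, adjusted p = 0.201) or replicate 4 (-1.01, adjusted p = 0.0504), with both runs of each mouse summed (-0.97, adjusted p = 0.125), or by DESeq2's likelihood ratio test (-0.95, adjusted p = 0.0707).

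Among the other members, the tests with the smallest unadjusted p were Cck in LH after challenge (0.57 at 4 h), Sst in LH after challenge (-0.51 at 1 h) and Crh in NAc after acute cocaine (0.83 at 4 h), none of which passed the adjustment. The LH challenge course was measured against 1 mouse at 0 h. Tests of whether a time course differed between experiences called 0 of 141 with edgeR, with 18 at an unadjusted p under 0.05, against 0.00356% over all genes, and DESeq2 was not run on these. The peptide receptors showed as little: 0 of 213 tests were called by edgeR over the 15 courses, 23 had an unadjusted p under 0.05 and DESeq2 called 0. Of the peptide processing and granule genes 2 of 195 tests were called, the granin Chgb in DS after acute cocaine (0.49) and the convertase Pcsk1 in DS after challenge (1.08), both higher.

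The 0 h mice asked whether levels differed before any injection that day, between naive mice, mice that had received 4 daily doses and abstinent mice. Of 78 tests of these genes 14 were called, all higher in the cocaine-experienced mice, against 3.56% of all tests over all genes, and 39 had an unadjusted p under 0.05. Of the 14 calls, 11 lay in abstinent mice, and 2 were Grp in NAc, from a naive group near 0. The Sst and Npy calls in DS came from the shared run, and their direction turned with every 0 h DS mouse and both runs summed. The 0 h mice also belong to the comparison over all times that follows, so the 2 are not independent.

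In LCtx of abstinent mice 3 of 10 genes were called, where 9.64% of all genes were. Cort measured 29.9, 31.0 and 30.9 CPM in naive mice and 48.1 and 42.7 in abstinent mice, without overlap (0.63 ± 0.17, adjusted p = 0.00738). Grp measured 24.6, 33.1 and 32.6 CPM against 51.9 and 56.2, also without overlap (0.89 ± 0.18, adjusted p = 0.000389). Nts measured 3.07, 1.39 and 2.995 CPM against 7.82 and 11.4, separate as well, but from few counts (1.91 ± 0.44, adjusted p = 0.00192). Before the last of the repeated doses, where 2.14% of all genes were called, edgeR and DESeq2 both called 0 of the 10, with 1 at an unadjusted p under 0.05, and Nts stood at 7.04 and 6.61 CPM. DESeq2 did not call Cort in abstinent mice (adjusted p = 0.0642). Cort was also not called without abstinent replicate 1 (0.56, adjusted p = 0.144), nor Nts without abstinent replicate 2 (1.64, adjusted p = 0.0550). Tissue markers differed in the same abstinent mice: 7 of 9 striatal markers were called higher, with Drd2 at 2.26 and Adora2a at 2.06, as were the striatal peptide Penk (1.84) and the choroid plexus gene Ttr (7.48), and the haemoglobin gene Hba-a1 was lower (-4.23). Their part in the 3 calls was not tested.

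In NAc of abstinent mice 5 of 10 genes were called (background 9.67%). Cck measured 309, 74.5, 66.7 and 173 CPM in the 4 naive mice and 355 and 450.1 in abstinent mice (1.41 ± 0.30, adjusted p = 0.00252). Vip measured 11.3, 2.10, 2.62 and 4.13 CPM against 9.81 and 16.1 (1.38 ± 0.38, adjusted p = 0.0185). Naive mice spread widely for both genes, and for Vip the groups overlapped.

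Sst measured 658, 716, 681 and 561 CPM in naive NAc against 805 and 842 in abstinent NAc (0.36 ± 0.083, adjusted p = 0.00539), and Nts 45.8, 101, 93.1 and 66.1 CPM against 131 and 115 (0.71 ± 0.16, adjusted p = 0.00512). These 2 groups of values did not overlap. Grp measured 0, 0.901, 0 and 0.295 CPM, or 4 counts over the 4 naive mice, against 2.00 and 3.95 CPM in abstinent mice (3.05 ± 0.77, adjusted p = 0.0104) and 3.33 and 3.49 in repeated mice (3.35 ± 0.80, adjusted p = 0.0319), the 1 call of 10 in repeated NAc (background 1.23%). Grp reached the filter on low counts through the cocaine-experienced mice, so its 2 fitted differences are no measure of fold and its calls are a description only. DESeq2 called only Sst in abstinent NAc and none in repeated NAc, where it gave no adjusted p for several low genes. With only the naive NAc mice that the study marks for baseline shifts, Sst (0.33, adjusted p = 0.0837), Vip (0.92, adjusted p = 0.268) and Cck (1.14, adjusted p = 0.0874) in abstinent and Grp in repeated mice (adjusted p = 0.117) were not called. Of single mice, Vip lost its call without any 1 of naive replicates 2, 3 and 4 or abstinent replicate 2 (1.02 to 1.31, adjusted p = 0.0650 to 0.116), Nts without abstinent replicate 1 (0.62, adjusted p = 0.0662), Grp in abstinent mice without replicate 2 (2.60, adjusted p = 0.0566), and Grp in repeated mice without naive replicate 3 or 4 or either repeated mouse (2.95 to 3.39, adjusted p = 0.0964 to 0.232). In the same abstinent mice all 6 oligodendrocyte markers were called lower and Ttr was at -2.12, and their part in these calls was not tested.

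In Amy the only call was Cck in abstinent mice, 1 of 10 where 3.47% of all genes were called. It measured 987 and 1040 CPM in naive mice, 1294 and 1290 in repeated mice and 1547, 1634 and 1396 in abstinent mice, 3 levels without overlap (abstinent against naive 0.62 ± 0.090, adjusted p = 7.50e-05). The repeated mice differed from the naive by 0.38 (adjusted p = 0.0907), and edgeR called 0 of the 10 genes there (background 0.260%), with 5 at an unadjusted p under 0.05, while DESeq2 called Cck. Tissue markers differed in the same Amy mice. The cortical marker Slc17a7 was higher in repeated (0.48) and abstinent mice (0.52) and Neurod6 in abstinent mice (0.96), 3 and 6 of 9 striatal markers were called lower, with Drd2 at -1.35 and -1.16, and 1 and 6 of 6 oligodendrocyte markers were called lower. Their part in the Cck levels was not tested. In LH after repeated doses edgeR called 0 of the 8 genes tested (background 1.40%), with 3 at an unadjusted p under 0.05, and DESeq2 called 0. LH had 1 abstinent mouse and no test.

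In DS the 0 h comparison used the shared run, with 2 mice a group. Sst measured 333 and 350.3 CPM in naive mice, 601 and 686 in repeated mice and 688 and 675 in abstinent mice (0.91 ± 0.098, adjusted p = 8.84e-06, and 1.01 ± 0.099, adjusted p = 1.36e-06). Npy measured 129 and 134 CPM against 235 and 218 and against 222 and 180.1 (0.77 ± 0.14, adjusted p = 0.00357, and 0.62 ± 0.14, adjusted p = 0.0147). These were the 2 calls among 5 genes tested in each comparison, where 1.33% and 2.57% of all genes were called, and naive mice lay below all others. Npy was not called in repeated mice without naive replicate 3 or 4 or repeated replicate 3 (0.72 to 0.79, adjusted p = 0.0585 to 0.140), nor in abstinent mice without naive replicate 3 or 4 or abstinent replicate 1 (0.45 to 0.64, adjusted p = 0.168 to 0.266). With every 0 h DS mouse and both runs summed, the differences were -0.23 and -0.06 for Sst and -0.25 and -0.30 for Npy, and none was called.

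Over all times, with 8 mice of each experience in the shared run, Sst in DS measured 333 to 400 CPM in acute mice (median 352), 537 to 686 in repeated mice (603) and 617 to 745 in challenge mice (681). Acute mice did not overlap with the others. The differences from acute were 0.80 ± 0.051 (adjusted p = 7.48e-21) and 0.94 ± 0.051 (adjusted p = 5.16e-24). Npy measured 129 to 160.2 CPM (139) in acute mice against 179.9 to 235 (202) and 180.1 to 264 (215), again without overlap (0.52 ± 0.071, adjusted p = 5.14e-08, and 0.65 ± 0.072, adjusted p = 4.09e-11). Nts was the third call, lower in repeated mice, with 14.8 to 23.5 CPM (18.2) in acute and 4.60 to 18.9 (14.8) in repeated mice (-0.62 ± 0.23, adjusted p = 0.0452), a call lost without the mice numbered replicate 3, 4 or 5 (-0.63 to -0.55, adjusted p = 0.0941 to 0.296). In all, 3 of 5 genes tested were called for repeated against acute (background 14.3%) and 2 of 5 for challenge against acute (17.8%). In the same libraries oligodendrocyte markers summed to 11104 to 12659 CPM in acute, 8836 to 10884 in repeated and 6796 to 9880 in challenge mice, and hypothalamic and thalamic markers to 110 to 137, 70.2 to 114 and 65.9 to 97.7. Acute mice did not overlap with the others in the first sum, nor with challenge mice in the second, and the part of these in the Sst and Npy differences was not tested.

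All 24 of these mice had a second DS library, the acute ones in one run and the repeated and challenge ones together in another, and there the order was the other way round. In those libraries Sst measured 476 to 584 CPM (median 554) in the acute mice, 337 to 396 (358) in the repeated and 341 to 480 (453) in the challenge mice. Acute mice were now the highest, and the ranges of acute and challenge mice just touched. The differences from acute were -0.69 (adjusted p = 5.46e-16) and -0.37 (adjusted p = 1.43e-08).

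Npy measured 209 to 245 CPM (231), 148 to 203 (175) and 165 to 196 (179) in the same libraries, with differences of -0.51 (adjusted p = 1.81e-11) and -0.43 (adjusted p = 7.95e-10). Nts measured 6.97 to 10.6 CPM (9.53), 9.23 to 22.4 (16.8) and 19.4 to 36.8 (25.2), with differences of 0.67 (adjusted p = 0.000374) and 1.38 (adjusted p = 5.20e-11). Both genes turned direction too. In these libraries run and experience cannot be told apart.

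The ratio of the 2 libraries of a mouse shows the same within animals. For Sst the shared run gave 0.575 to 0.711 times the separate run in the 8 acute mice, 1.52 to 1.92 times in the 8 repeated and 1.43 to 1.81 times in the 8 challenge mice. For Npy it gave 0.534 to 0.676, 1.06 to 1.48 and 0.920 to 1.47 times, and for Nts 1.62 to 2.82, 0.262 to 2.05 and 0.438 to 0.884 times. Acute mice did not overlap with the others for Sst and Npy, and for Nts only with repeated mice.

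In exact two-sided permutation tests of the log2 ratios, 8 mice against 8, the repeated minus acute difference was 1.38 for Sst, 0.92 for Npy and -1.45 for Nts, and the challenge minus acute difference 1.23, 1.00 and -1.72. The p was 0.000155, the smallest that this design can give, for all of these except Nts in repeated mice (0.000932), and 0.000311 and 0.00155 after adjustment over 10 tests. Cck differed by 0.14 (p = 0.424, exact permutation) and 0.10 (p = 0.445), and Pvalb by 0.34 (p = 0.0866) and 0.23 (p = 0.331). All mice of an experience shared the same runs, so these p values do not measure the spread between runs. In these libraries the DS direction of Sst, Npy and Nts between experiences depended on which library of a mouse was read.

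**Figure D3:**
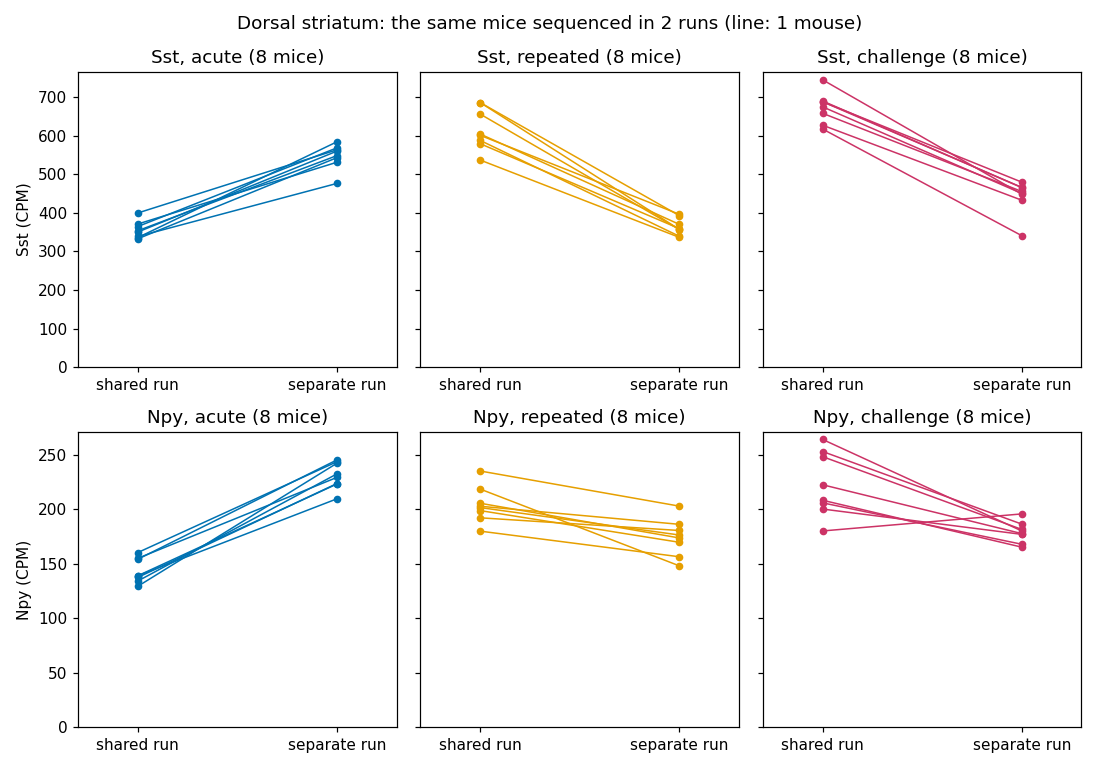
Sst and Npy in DS (CPM) for the mice sequenced in 2 runs, with the shared run on the left and the separate run on the right of each panel, 1 line a mouse and 8 mice an experience. Lines rise to the right in all 8 acute mice for both genes, and fall in all 8 repeated mice for both and, for Sst, in all 8 challenge mice.

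Other genes moved with the run as well. In the acute mice the hypothalamic and thalamic markers summed to 110 to 137 CPM in the shared and 37.4 to 56.6 in the separate run, the peptide receptors to 254 to 286 and 332 to 383, and the peptide processing genes to 5548 to 5912 and 6842 to 6978, while the striatal markers summed to 9303 to 10312 and 9469 to 10513. Shared-run libraries held 1269390 to 2704690 counts and separate ones 3069570 to 10367800. The part of these in the result was not tested. Where both experiences lay in 1 run either way, challenge against repeated, the shared run gave 0.14 ± 0.050 for Sst (adjusted p = 0.0981) and the separate run 0.32 in the same mice (adjusted p = 5.72e-06), the same direction. In the shared run edgeR and DESeq2 called 0 of 5 genes for that pair, with 1 at an unadjusted p under 0.05 (background 4.05%). In the separate run 3 of 5 were called in the same mice (11.8%), Sst, Cck (0.32, adjusted p = 0.0345) and Nts (0.70, adjusted p = 0.000129), all higher in challenge mice.

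In LCtx 5 of 10 genes were called for challenge against acute, all higher (background 18.1%), 1 for repeated against acute (4.02%) and 4 for challenge against repeated, all higher (13.2%). Grp measured 24.6 to 38.5 CPM in acute mice (median 31.0, 8 mice), 24.6 to 43.5 in repeated (33.4, 7 mice) and 30.2 to 68.3 in challenge mice (51.9, 13 mice). Cort measured 22.9 to 38.6 CPM (30.9), 24.8 to 33.1 (29.1) and 33.3 to 64.7 (49.9). For both genes acute and repeated mice shared 1 range and challenge mice reached above it. Challenge exceeded acute by 0.80 ± 0.11 for Grp (adjusted p = 1.10e-07) and by 0.62 ± 0.096 for Cort (adjusted p = 1.49e-06), and exceeded repeated by 0.63 ± 0.11 (adjusted p = 4.01e-05) and 0.76 ± 0.10 (adjusted p = 1.73e-07).

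Tac2 in LCtx measured 22.7 to 42.7 CPM (29.6) in acute, 33.4 to 44.1 (34.8) in repeated and 31.8 to 55.1 (43.9) in challenge mice, which differed from acute by 0.53 ± 0.098 (adjusted p = 3.78e-05) and from repeated by 0.27 ± 0.10 (adjusted p = 0.0466). Crh was called only for challenge against repeated (0.57 ± 0.20, adjusted p = 0.0444), from 4.19 to 11.2 CPM (7.78) against 3.71 to 7.64 (4.93). Vip measured 39.6 to 83.6 CPM (68.7), 76.5 to 102 (82.8) and 56.1 to 101 (74.2), and differed from acute by 0.40 ± 0.096 in repeated (adjusted p = 0.00644) and 0.32 ± 0.087 in challenge mice (adjusted p = 0.00414). All of these groups overlapped.

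Cck in LCtx measured 1236 to 2247 CPM (2189) in acute and 2029 to 2966 (2381) in challenge mice (0.31 ± 0.069, adjusted p = 0.000528). Without the acute mouse that stood apart for Nts, the challenge differences of Cck (0.22) and Vip (0.23) fell under the fold of 1.2, and those of Tac2 (0.46), Cort (0.55) and Grp (0.76) were called. Against acute mice, Tac2 (0.47, adjusted p = 0.0587) and Vip (0.43, adjusted p = 0.0585) were not called without the mice numbered replicate 1, and Cck fell under the fold of 1.2 without replicate 2 (0.18). Vip in repeated mice was not called without the mice numbered replicate 1 (0.53, adjusted p = 0.125) or replicate 2 (0.25, adjusted p = 0.254). Against repeated mice, Crh was not called without any 1 of replicates 1 to 4 (0.47 to 0.67, adjusted p = 0.0685 to 0.384), nor Tac2 without replicate 1, 2 or 4 (0.22 to 0.33, adjusted p = 0.0691 to 0.496). Other tissue markers moved with the same groups. Endothelial and blood markers summed to 7335 to 12186 CPM in acute against 458 to 765 in repeated and 568 to 1191 in challenge mice, and all 9 striatal markers were called higher in challenge than in acute mice. Their part in these results was not tested.

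In NAc 5 of 10 genes were called for challenge against acute, all higher (background 23.6%), and 3 for repeated against acute, all higher (4.40%). Cck measured 47.5 to 309 CPM in acute (median 93.9, 14 mice), 139 to 573 in repeated (299, 8 mice) and 201 to 927 in challenge mice (402, 14 mice). Vip measured 2.02 to 11.3 CPM (5.33), 6.38 to 13.9 (9.58) and 8.87 to 29.3 (12.6), and Cort 2.30 to 12.3 (5.35), 4.23 to 20.3 (7.92) and 7.62 to 35.99 (11.6). The groups overlapped for all 3 genes, and the medians lay in the order acute, repeated, challenge. The challenge differences from acute were 1.81 ± 0.27 for Cck (adjusted p = 4.22e-07), 1.41 ± 0.20 for Vip (adjusted p = 8.07e-08) and 1.23 ± 0.26 for Cort (adjusted p = 0.000113). The repeated differences were 1.12 ± 0.30 for Cck (adjusted p = 0.0116) and 0.89 ± 0.23 for Vip (adjusted p = 0.00882), and without the mice numbered replicate 2 they were 0.14 (adjusted p = 0.927) and 0.47 (adjusted p = 0.604).

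Grp in NAc measured 0 to 1.53 CPM in acute mice (median 0.295, at most 4 counts a mouse), 0.555 to 3.49 in repeated (2.76) and 0.830 to 6.80 in challenge mice (3.39, 3 to 20 counts). Most repeated and challenge mice lay above the acute range. The differences from acute were 2.68 ± 0.44 (adjusted p = 3.54e-05) and 3.17 ± 0.38 (adjusted p = 2.20e-09), and DESeq2 gave no adjusted p for the first. With so few counts in acute mice Grp reached the filter through the other groups, so these fitted differences are no measure of fold and the calls are a description only. Nts measured 45.8 to 118 CPM (74.3) in acute and 61.9 to 133 (101) in challenge mice (0.41 ± 0.11, adjusted p = 0.00195), with wide overlap.

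Sst and Npy in NAc were called for challenge against repeated only, 2 of 10 genes (background 10.2%). Sst measured 519 to 697 CPM (614) in repeated and 620 to 887 (794) in challenge mice (0.39 ± 0.057, adjusted p = 1.08e-06), and Npy 183 to 253 (223) and 206 to 304 (266; 0.27 ± 0.058, adjusted p = 0.000542). The acute mice, at 561 to 766 (706) and 199.9 to 272 (249), lay between. Without the mice numbered replicate 1, Npy was not called (0.15, adjusted p = 0.254).

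Markers of other cells differed between these groups. The cortical excitatory markers summed to 89.7 to 428 CPM in acute (median 164), 144 to 493 in repeated (271) and 195 to 655 in challenge mice (333). Oligodendrocyte markers summed to 6717 to 8551 CPM in acute, 4638 to 8881 in repeated and 3644 to 6415 in challenge mice, so acute and challenge mice did not overlap. The part of these in the NAc results was not tested.

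**Figure D4:**
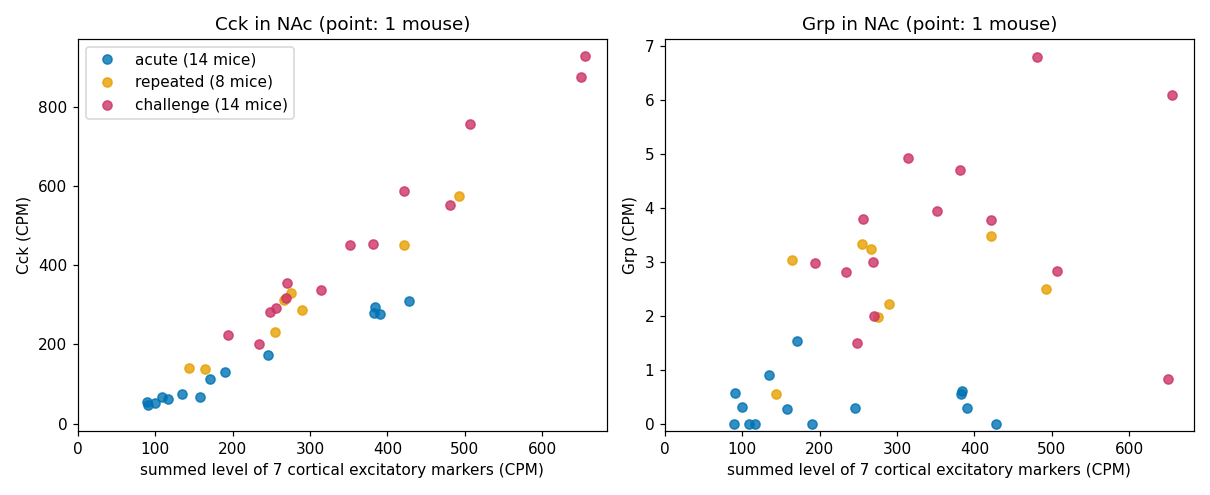
Cck (left) and Grp (right) in NAc (CPM) against the summed level of 7 cortical excitatory markers (CPM), 1 point a mouse, coloured by experience (14 acute, 8 repeated and 14 challenge mice). Mice with a higher cortical sum have more Cck, and the acute mice, with sums up to 428, lie at or below 1.53 CPM for Grp.

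In Amy acute and repeated mice were sequenced in the same run. There 4 of 10 genes were called for repeated against acute (background 9.27%), 3 higher and 1 lower. Cck measured 891 to 1181 CPM in acute (median 999), 1226 to 1485 in repeated (1369) and 1200 to 1643 in challenge mice (1547). No acute mouse reached the other groups. The differences from acute were 0.46 ± 0.056 (adjusted p = 4.13e-08) and 0.59 ± 0.050 (adjusted p = 3.54e-13).

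Cort in Amy measured 12.3 to 23.3 CPM (14.4), 16.7 to 29.3 (25.8) and 16.3 to 27.9 (21.7), with differences of 0.75 ± 0.13 (adjusted p = 4.44e-05) and 0.62 ± 0.11 (adjusted p = 3.20e-05). Vip measured 16.7 to 29.0 CPM (22.4), 18.2 to 32.5 (28.7) and 26.5 to 47.2 (35.97), with differences of 0.35 ± 0.11 (adjusted p = 0.0161) and 0.65 ± 0.090 (adjusted p = 1.88e-07). Tac2 was the gene that went down, from 99.5 to 181 CPM (133) in acute to 68.7 to 122 (104) in repeated and 79.7 to 169 (102) in challenge mice (-0.38 ± 0.095, adjusted p = 0.00392, and -0.37 ± 0.081, adjusted p = 0.000364). Ranges overlapped for Cort, Vip and Tac2. The same 4 genes were called for challenge against acute, in the same directions (background 14%; both comparisons share the acute mice).

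For challenge against repeated in Amy, Vip (0.29 ± 0.090, adjusted p = 0.00641) and Grp (0.30 ± 0.12, adjusted p = 0.0410) were called, 2 of 10 where 27.9% of all genes were. Without the mice numbered replicate 1 neither was called, with Vip at 0.23 (adjusted p = 0.147) and Grp at 0.13 (adjusted p = 0.542), and Vip fell under the fold of 1.2 without replicate 3 (0.26). Tissue markers differed here as well, between acute and repeated mice within 1 run and in challenge mice in 2 others. The cortical markers summed to 647 to 921 CPM in acute, 1015 to 1277 in repeated and 1050 to 1485 in challenge mice, and striatal markers to 504 to 836, 329 to 553 and 322 to 526. Of the 9 striatal markers 8 were called lower in both comparisons. The part of these in the Cck, Cort, Vip and Tac2 differences was not tested. In repeated against acute mice Vip was not called without the mice numbered replicate 1 (0.44, adjusted p = 0.125) or replicate 2 (0.26, adjusted p = 0.306), and Tac2 not without replicate 1 (-0.34, adjusted p = 0.167).

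**Figure D5:**
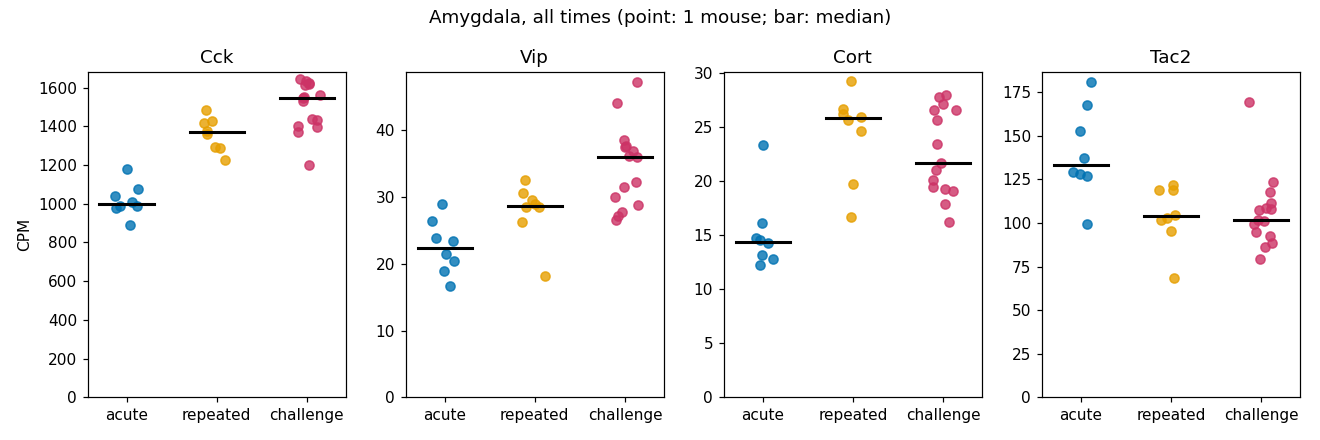
Cck, Vip, Cort and Tac2 in Amy (CPM) by cocaine experience, 1 point a mouse and a bar at the median (8 acute, 8 repeated and 15 challenge mice). Cck lies at 891 to 1181 CPM in acute mice and at 1200 or above in the others, and the Tac2 median is highest in acute mice.

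In LH, where acute and repeated mice also shared a run, edgeR and DESeq2 called 0 of the 9 genes tested for repeated against acute (background 4.37%), with 3 at an unadjusted p under 0.05. For challenge against acute 4 of 9 were called, 2 higher and 2 lower (15.7%). Nts measured 79.7 to 119 CPM in acute (median 97.1, 8 mice), 82.4 to 108 in repeated (91.0, 8 mice) and 116 to 168 in challenge mice (122, 7 mice). Only the highest acute mouse reached the challenge range. The differences were 0.43 ± 0.077 from acute (adjusted p = 3.74e-05) and 0.48 ± 0.077 from repeated mice (adjusted p = 2.40e-06).

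Crh in LH measured 6.42 to 12.6 CPM (6.95) in acute, 6.67 to 19.6 (10.5) in repeated and 10.4 to 19.8 (11.9) in challenge mice (challenge against acute 0.81 ± 0.19, adjusted p = 0.00151). Sst measured 466 to 647 CPM (495) in acute, 442 to 610 (499) in repeated and 359 to 524 (412) in challenge mice, which were lower than both (-0.28 ± 0.064, adjusted p = 0.000764, and -0.28 ± 0.064, adjusted p = 0.000438). Npy measured 44.1 to 61.9 CPM (51.8) in acute against 33.1 to 57.6 (42.8) in challenge mice (-0.29 ± 0.086, adjusted p = 0.00912). All of these ranges overlapped, and without the mice numbered replicate 2 Sst (-0.15, adjusted p = 0.112), Npy (-0.12, adjusted p = 0.489) and Crh (0.69, adjusted p = 0.0709) were not called against acute.

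For challenge against repeated in LH 4 of 9 genes were called (background 28.5%). Beside Nts and Sst these were Vip, at 5.54 to 9.61 CPM (6.22) against 2.54 to 6.23 (4.58; 0.56 ± 0.21, adjusted p = 0.0269), and Cck, at 112 to 244 CPM (152) against 90.5 to 146 (118; 0.34 ± 0.11, adjusted p = 0.00819). Vip was not called without the mice numbered replicate 1 (0.64, adjusted p = 0.189) or replicate 2 (0.53, adjusted p = 0.205), Cck not by DESeq2 (adjusted p = 0.0646), and Sst fell under the fold of 1.2 without replicate 2 (-0.20). Oligodendrocyte markers summed to 12407 to 14961 CPM in challenge mice against 16486 to 19881 in the others, without overlap, and their part in these results was not tested.

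Over all structures, 43 of 132 tests by experience were called, 37 higher and 6 lower in the later experience, with the DS taken from the shared run, against 14% of all tests over all genes. With the second libraries of the same DS mice there were 50 calls, 38 higher and 12 lower. Tests of whether the shift differed between structures called 7 of the 10 genes for repeated against acute (background 26.0%) and 8 of 10 for challenge against acute (48.1%), again with the shared run. Vip, Crh, Tac2, Cort and Grp had failed the filter on low counts in those DS libraries, so their shift in DS rests on levels near 0, and nothing is read from their calls. Of the other 5 genes, Sst, Npy and Cck were called in both. For Cck the shift in repeated mice was 0.14 in LCtx, 1.13 in NAc, -0.25 in DS, 0.46 in Amy and -0.23 in LH. For Sst in challenge mice it was 0.15, 0.25, 0.89, -0.21 and -0.29 in that order.

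Of 183 tests of the receptors of these peptides by experience, 23 were called higher and 9 lower, against 14% called over all genes. In LCtx, of 12 tested, Ntsr2 was higher in repeated mice (0.30) and Crhbp in challenge mice (0.32). In NAc, of 12, Cckbr was higher in repeated mice (0.41), and Sstr3 (0.90), Crhbp (0.70) and Cckbr (0.42) were higher in challenge mice. In Amy, of 15, 3 were higher and 2 lower in repeated mice, with Sstr3 at 0.65, Tacr3 at -0.55, Npy2r at -0.52 and Sstr2 at 0.36, and 3 were higher and 1 lower in challenge mice, with Sstr2 at 0.85, Crhbp at 0.78, Sstr3 at 0.49 and Crhr1 at -0.32. In repeated Amy mice Tacr3 and Tac2 were called lower, while Sstr2, Sstr3 and Npy2r were called there and Sst and Npy were not. In DS, of 8, Cckbr (1.18) and Ntsr2 (0.31) were higher in repeated mice and Npy1r lower in challenge mice (-0.87), all in the shared run. The receptor sum turned between the libraries of the same DS mice, with medians of 268.5 CPM in acute and 315 in repeated mice in the shared run and of 366 and 279 in the separate runs. In LH, of 14, edgeR and DESeq2 called 0 in repeated mice, with 2 at an unadjusted p under 0.05, and edgeR called Crhbp (0.50) and Npy2r (0.36) higher in challenge mice. Over all 15 comparisons the receptor medians lay between -0.28 and 0.22, against -0.01 to 0.02 for all genes.

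Among other genes of the interneuron list, Tac1 was higher in LCtx (0.92 in repeated and 1.23 in challenge mice) and lower in Amy (-0.64 and -0.45), as striatal markers of the same blocks were. Calb2, a marker of Vip-type interneurons, was higher in challenge LCtx (0.47) and NAc (0.69), and Reln was lower in NAc (-0.39 and -0.52). In Amy, Gad2, a synthetic enzyme for GABA, was called lower in repeated mice (-0.30), and Slc32a1, its vesicular transporter, in challenge mice (-0.33). Of 333 tests of this list by experience 18 were called higher and 30 lower, near the 14% called over all genes.

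Among the genes that process and store peptides, the convertase Pcsk1 was higher in challenge mice in NAc (0.97), Amy (0.67) and LH (0.44), and the granin Scg2 in LCtx (0.41), NAc (0.43), DS (0.66, shared run) and LH (0.51). Of 195 tests of this list 28 were called higher and 7 lower, again against 14% over all genes. The sum of this list also turned between the libraries of the same DS mice. Its medians were 5636 CPM in acute and 5953 in challenge mice in the shared run, and 6884 and 5961 in the separate runs. Of the other neuropeptides, Penk (1.44), Cartpt (1.31) and Pdyn (0.93) were higher in challenge LCtx, Penk (-0.58), Pdyn (-0.48), Oxt (-1.003) and Avp (-0.59) lower in challenge Amy, and Cartpt lower in DS (-2.57 in repeated and -1.62 in challenge mice). Of 132 tests of that list 18 were called higher and 20 lower.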

How the data were processed

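RNA was measured in 194 libraries of 3′-RNA-seq with molecular identifiers. The authors aligned reads with STAR, counted them per gene with HTSeq on GRCm38 and removed PCR duplicates, in versions not given in the sources used here. The deposited values are raw counts of 19363 genes, 197 of which had no count, and all columns were matched to a labelled sample (0 were left unused). By the methods, libraries under a read minimum were dropped and deep ones thinned, and the deepest library here holds 10367769 counts.

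Counts were summed over the runs of a mouse and structure, except in DS, where experiences were compared in the shared run and time courses in the separate runs. The quasi-likelihood test of edgeR 4.0.16 (R 4.3.3) with TMM scaling and its default filter on low counts was fitted over all genes and tested on simulated data. A call needed an adjusted p under 0.05 and a fold change over 1.2. DESeq2 1.42.0 was the alternative tool. Tests by experience had time as a term, and structures were compared with the animal as a block. A gene not tested had failed the filter. Time courses are given by the time point farthest from 0 h. Log2 differences are given with the SE of the fit. Replicates are different mice of 1 group. Exact permutation tests, CPM and figures used Python 3.11.15 (numpy 2.4.6, pandas 2.3.3, matplotlib 3.10.9).

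The 10 genes and the lists (peptide receptors, interneuron genes, peptide processing genes, other neuropeptides and tissue markers) were chosen with earlier results of these data known. All 10 genes are named throughout, and from a list at most 4 called genes a comparison, largest change first, or fewer. Within a structure, replicate numbers did not mark paired samples across groups: the median correlation of same-numbered samples was -0.00121 to 0.00953 by structure. Between structures the same number often, but not always, marked the same mouse.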

Additional observations from a re-analysis of the deposited data

Results flagged for a closer look

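Single mice that stood apart from the rest of their group, by Dixon's test at the 95% level within groups of 4 or 5 mice, numbered 13 of 177 tested (7.34%), where chance gives about 1 in 20. In DS these were Sst at 476 CPM (acute 1 h replicate 4) and 350.1 (repeated 0 h replicate 1), Npy at 245 (acute 2 h replicate 1) and 156 (repeated 1 h replicate 4), and Cck at 99.2 (challenge 1 h replicate 3), 37.2 (challenge 2 h replicate 4) and 39.4 (repeated 4 h replicate 3). Also in DS, challenge 4 h replicate 3 stood apart for Tac2 at 1.71 CPM and for Pvalb at 35.2. In NAc at 4 h after challenge Tac2 stood at 24.3 CPM in replicate 3 and Cort at 35.99 in replicate 1, and in Amy after challenge Grp stood at 19.7 in 1 h replicate 2 and Tac2 at 169 in 2 h replicate 4.

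The shift between experiences differed between structures for 15 of 20 tests, with the DS taken from the shared run, whose direction for Sst and Npy the other libraries of the same mice did not share. For repeated against acute mice the adjusted p was 4.59e-14 for Sst, 1.92e-08 for Npy, 0.000667 for Cck, 0.00874 for Crh, 0.0210 for Tac2, 0.0106 for Cort and 4.49e-06 for Grp. Sst shifted by 0.76 in DS and by -0.15 to 0.03 elsewhere and Npy by 0.48 in DS and -0.22 to 0.07 elsewhere.

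For challenge against acute mice the adjusted p was 7.68e-22 for Sst, 2.36e-12 for Npy, 1.76e-05 for Vip, 1.10e-08 for Cck, 0.00284 for Crh, 1.02e-05 for Tac2, 0.00260 for Cort and 4.18e-10 for Grp. Cck shifted by 1.83 in NAc, 0.59 in Amy, 0.32 in LCtx, 0.11 in LH and -0.02 in DS. Tac2 went up in LCtx (0.54) and down in Amy (-0.37). Vip, Crh, Tac2, Cort and Grp failed the filter on low counts in the shared-run DS libraries and passed here through the structures where they are high, so their DS shifts (-1.42, -1.23, -0.06, -1.75 and 2.29 in challenge mice) rest on levels near 0, and nothing is read from their calls.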

How the results depend on the processing

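RLE scaling left every count of calls as it was (88 between structures, 2 over time, 0 for time responses, 14 at 0 h, 43 by experience and 15 for shifts between structures). It moved the median of all genes by over 0.1 only in time responses of NAc and LH and in the shift tests (0.169 and 0.269). Without a filter on low counts 11 time tests, 12 time responses and 24 tests at 0 h were called. DESeq2 called 1 over time and 9 at 0 h, and a fold of 1.5 left 20 calls by experience. Over time, a 2-step procedure modelled on that of the study, but with edgeR tests, called 0 of the 3 tests that reached its second step. Summing both runs of a DS mouse gave 1 call over time, and leaving out the LCtx or the DS mouse that stood apart 1 each. In the shared runs of 4 structures 48 of 60 tests were called. Leaving out each replicate in turn gave 86 to 89 calls between structures, 0 to 2 over time, 0 to 2 time responses, 10 to 18 at 0 h and 38 to 45 by experience. In LH, the 3 time courses and the 3 time responses could not be fitted without replicate 1 or without replicate 2, for lack of residual degrees of freedom.

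These values changed direction. Nts in LCtx ran from -0.63 (without replicate 2) to 5.08 (without replicate 1) as replicates were left out and was -0.37 without the mouse that stood apart. In DS at 0 h, with every mouse and both runs summed, Sst was -0.233 and -0.0624 and Npy -0.255 and -0.296 in repeated and abstinent mice. Over all times in all separate-run DS mice, Sst was -0.628 and -0.353, Npy -0.474 and -0.416 and Nts 0.267, and in the mice with 2 libraries Sst was -0.691 and -0.374, Npy -0.507 and -0.434 and Nts 0.675. The cause was not tested.

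With the replicate number as a block, 2 time tests, 0 time responses, 14 tests at 0 h and 40 by experience were called. The block lost all 5 calls of abstinent NAc (Sst 0.29, adjusted p = 0.173, Vip 0.996, 0.365, Cck 1.14, 0.189, Nts 0.84, 0.0661 and Grp 2.58, 0.177), Grp in repeated NAc (2.84, 0.5263), and by experience Crh and Tac2 in LCtx (0.44 and 0.24) and Vip in Amy (0.20), each for challenge against repeated, and Nts in repeated DS (-0.70). The numbers are shared between groups of different mice. Depth limits Grp, Cort, Crh, Vip and Tac2 in DS, of which none could be tested there by experience, and Grp in NAc, at 0 to 20 counts a mouse.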
